A study of Mus musculus with 2 samples.

Results

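The genes described here make, degrade and sense vitamin D and move calcium across kidney tubule cells. They are Cyp2r1, Cyp27b1, Cyp24a1, Vdr, Kl, Pth1r, Casr, Trpv5, Calb1 and Slc8a1, 10 of the 21938 protein-coding genes of GENCODE M21. They were chosen by name and not by a rule on their values, though earlier results of these data were known. DNase I hypersensitive sites were mapped in kidney tissue of newborn mice (age 0 days, strain B6NCrl, no genotype or treatment given) in 1 group of 2 biological replicates. DNase I cuts DNA that is free of nucleosomes, so places cut often are accessible chromatin. Both replicates carry 1 donor record in the labels, and their spread may therefore be only technical. Replicate 1 held 266133 peaks and replicate 2 held 257133, the lists hold no read counts, and the sequencing depth is unknown. With 1 group there is no comparison between conditions and no test was run.

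Vitamin D is hydroxylated in the liver and then in the proximal tubule to calcitriol, which acts through a nuclear receptor. Parathyroid hormone raises calcitriol synthesis and calcium reabsorption, while the bone hormone FGF23, with klotho as co-receptor, lowers calcitriol synthesis and phosphate reabsorption. In the distal tubule calcium enters through an apical channel, is carried by calbindin and leaves through the basolateral exchanger and pump.

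A promoter peak is a deposited peak that overlaps the 1 kb on either side of an annotated transcription start site (TSS) of the gene. Its signal is the authors' value for that peak, in no stated unit. A shared site is the union of overlapping peaks of both replicates, a distal site is a shared site whose centre lies more than 1 kb from every annotated TSS, and the shared sites of a gene are those centred within 100 kb of its most 5′ TSS. Distances are given along the direction of transcription from that TSS, and coordinates are those of mm10. The libraries come from whole tissue, so an open site in few cells and a partly open site in many cells cannot be told apart. Marker genes of kidney and of other tissues were looked up. Of 10 kidney markers, 9 had promoter peaks in each replicate, as did 71.8% of all protein-coding genes, and Aqp2 had one in replicate 2 alone. Such peaks were found at 0 of 4 parathyroid and thyroid genes, 2 of 4 adrenal cortex genes (Nr5a1 with 20.6 ± 1.05 and Star with 40.2 ± 0.442, mean ± SD, n = 2), 2 of 4 leukocyte genes, 2 of 5 genes of heart and skeletal muscle and 1 of 3 bone genes. All markers of these other tissues lay in quintiles 1 and 2 of promoter CpG content (defined below), where 19.2% and 53.1% of all genes had such peaks. The kidney markers were spread over all 5 quintiles, so the counts do not check the tissue label. The part of cells of other tissues in the results was not tested.

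Accessible promoters were found at most of these genes, and their signals were modest. Of the 10 genes, 9 had promoter peaks in both replicates, against 71.8% of all protein-coding genes. The same 9 were found in replicate 1 (72.8% of all genes) and in replicate 2 (72.9%). At 8 of the 10 the peaks of the replicates also overlapped, against 71.5% of all genes. Trpv5 had no promoter peak, and Casr had peaks that did not overlap between replicates. The median promoter signal over the 9 genes was 37.5, against 99.8 (quartiles 48.3 and 160) over the 15743 protein-coding genes that had peaks in both. All 9 lay below that median. Every promoter peak of these genes was 150 bp wide, so signals refer to the same length.

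**Figure D1:**
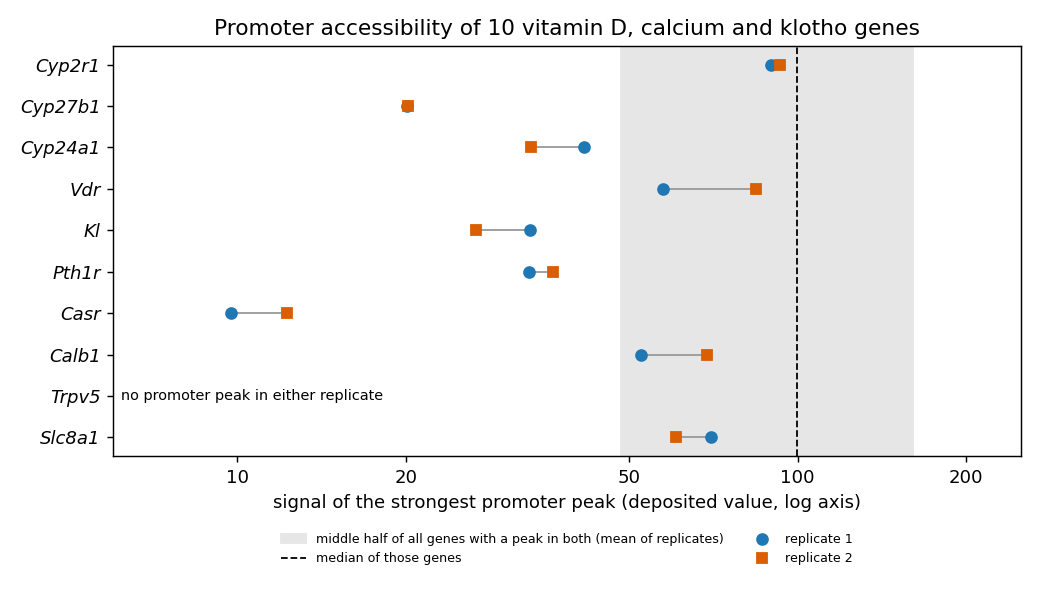
Signal of the strongest promoter peak (horizontal log axis, deposited value) for each gene (rows) in replicate 1 (circles) and replicate 2 (squares), with the quartiles (grey band) and the median (dashed line) of all genes with a peak in both replicates. All 9 genes with peaks sit left of the dashed line at 99.8, and Trpv5 has none.

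In order of mean signal, Cyp2r1 came first with 91.3 ± 2.36, followed by Vdr (70.9 ± 19.0), Slc8a1 (65.4 ± 6.81), Calb1 (60.8 ± 11.6), Cyp24a1 (37.5 ± 5.70), Pth1r (34.9 ± 2.46), Kl (30.0 ± 4.70), Cyp27b1 (20.1 ± 0.0663) and Casr (11.0 ± 1.79; mean ± SD, n = 2 for each). The replicate values of Vdr, Slc8a1 and Calb1 overlapped one another. Those of Pth1r overlapped those of Cyp24a1 and of Kl, while Cyp24a1 and Kl did not overlap. Cyp2r1, Cyp27b1 and Casr did not overlap their neighbours in this order. The log2 difference between replicates, replicate 2 minus replicate 1 and centred on all shared sites with 1 peak of each, ran from -0.31 at Kl to 0.57 at Vdr. Of those shared sites, 95% lay between -0.73 and 0.65. For Pth1r, Slc8a1 and Casr the strongest peaks compared lay at different places in the replicates.

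The base composition of the promoters, which the choice of genes did not use, differed among the genes, and with it the share of all genes that have a peak. CpG content was taken as observed over expected CpG within 500 bp to each side of the most 5′ TSS and split into quintiles of all protein-coding genes. Cyp24a1 (0.678), Cyp2r1 (0.758), Kl (0.723) and Calb1 (0.701) lay in quintile 4, where 97.9% of genes had peaks in both replicates (99% in quintile 5, which held none of the 10). Casr (0.536) lay in quintile 3, where 89.6% did, and its signal stood at percentile 0.683 of genes with a peak. Cyp27b1 (0.247), Pth1r (0.216) and Slc8a1 (0.324) lay in quintile 2 (53.1%). The strongest Pth1r peaks lay nearest to Pth1r-202 and Pth1r-203 (0.730 and 0.733), with weaker ones at the most 5′ TSS. Slc8a1 had peaks in both replicates only at Slc8a1-205 (0.803), so its quintile does not describe the start site with the peaks. Vdr (0.111) and Trpv5 (0.146) lay in quintile 1 (19.2%), and of these Vdr had a peak, away from its most 5′ TSS.

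Both vitamin D activating hydroxylases had an accessible promoter, at very different signal. Cyp2r1 encodes the main microsomal enzyme of the liver step of vitamin D activation. Its strongest promoter peaks had 89.6 in replicate 1 and 93.0 in replicate 2 and formed a site centred 346 bp downstream of the most 5′ TSS, in an intron. A neighbouring peak over the start sites had 72.4 and 69.7, and the TSSs 8236 and 8240 bp downstream had none. Cyp2r1 had 3 distal sites. One was intergenic, 17654 bp upstream (44.2 and 40.0). The others lay in introns of Pde3b, 63446 bp (23.3 and 19.4) and 36506 bp (12.1 and 13.7) downstream. Cyp27b1 encodes the enzyme that makes calcitriol in the proximal tubule. Its strongest promoter peak had 20.1 and 20.2, at the same position in both replicates, 566 bp downstream of the most 5′ TSS and 145 bp downstream of the start of Cyp27b1-202. At the most 5′ TSS itself a peak of 12.4 was called in replicate 2 alone, centred 74 bp upstream. Among genes with a promoter peak in each replicate, Cyp27b1 stood at percentile 8.57 and Cyp2r1 at 45.9. The sequences are shown because these are the strongest promoter sites of the hydroxylases. Whether sequence bears on the difference in signal was not tested. The Cyp2r1 site (chr7:114562541-114562710, minus strand) has 13 CpGs in 170 bp, and the Cyp27b1 site (chr10:127048741-127048890, plus strand) has 2 in 150 bp. Capitals mark a match to the AP-2 letters GCCNNNGGC.
Cyp2r1 promoter site: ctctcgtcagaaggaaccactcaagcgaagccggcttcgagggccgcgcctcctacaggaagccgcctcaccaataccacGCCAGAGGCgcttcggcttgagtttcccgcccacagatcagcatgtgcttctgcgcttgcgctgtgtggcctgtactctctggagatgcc
Cyp27b1 promoter site: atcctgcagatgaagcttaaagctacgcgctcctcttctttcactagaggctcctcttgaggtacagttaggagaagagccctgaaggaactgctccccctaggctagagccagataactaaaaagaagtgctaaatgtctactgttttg

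Around Cyp27b1 most shared sites lay at the promoters of neighbouring genes or inside them, which does not show which gene they serve. The 64 shared sites within 100 kb placed the gene at percentile 98.3 of all protein-coding genes, whose median was 22, but 10 other protein-coding genes have their most 5′ TSS in the same span. Of the 64 sites, 32 were promoter sites of other genes, 17 lay inside other genes, 13 were intergenic, 1 was inside Cyp27b1 and 1 was its own promoter. For only 2 of them was Cyp27b1 the nearest protein-coding gene. By signal, the leading distal sites were an intergenic one 76044 bp upstream (chr10:126972121-126972290, 114 and 102) and a pair in introns of Ctdsp2, 61394 bp (chr10:126986781-126986930, 107 and 91.6) and 57724 bp (chr10:126990441-126990610, 89.1 and 109) upstream. Work in adult mouse kidney has placed regulatory modules of Cyp27b1 in introns of its neighbours Mettl1 and Mettl21b, the latter named Eef1akmt3 in the annotation used here. Sites there were therefore looked up, a choice made after values had been seen. Those genes held 8 shared sites, at or inside them. The strongest, at 79.3 and 77.6 (chr10:127041841-127042010) and 58.6 and 64.5 (chr10:127042121-127042270), lay 6324 and 6054 bp upstream of Cyp27b1 and within 1 kb of the start sites of both neighbours. They cannot be told apart from the promoters of those genes. Another promoter site of both neighbours, 6784 bp upstream (chr10:127041381-127041550), had 22.5 and 23.3. Away from annotated start sites, one 4794 bp upstream in Mettl1 (chr10:127043341-127043570) had 24.4 and 21.2, and one 14754 bp upstream in an intron of Eef1akmt3 had 12.5 and 14.1. The sequences are given on the strand of Cyp27b1, for the upper one only chr10:127041841-127041931, and capitals in the lower one mark the E-box CAGCTG.
Site 6324 bp upstream: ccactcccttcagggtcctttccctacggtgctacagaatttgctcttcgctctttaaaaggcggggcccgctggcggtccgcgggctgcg
Site 6054 bp upstream: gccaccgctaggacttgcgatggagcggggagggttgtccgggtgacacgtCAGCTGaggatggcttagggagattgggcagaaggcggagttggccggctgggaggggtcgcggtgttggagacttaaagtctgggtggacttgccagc

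Cyp24a1, the hydroxylase that inactivates calcitriol and is strongly induced by it, had its strongest promoter peak just upstream of its single annotated TSS. It had 41.5 in replicate 1 and 33.4 in replicate 2, centred 331 and 311 bp upstream. A further peak 849 and 829 bp downstream had 24.5 and 30.7. Both also overlapped the 1 kb around an annotated TSS of Pfdn4, which encodes a prefoldin subunit, so they cannot be assigned to Cyp24a1 alone. No peak of either replicate came within 150 bp of the Cyp24a1 TSS. The upstream site (chr2:170497381-170497550, minus strand) is shown because the elements through which calcitriol induces the gene are known to lie upstream of its start. It has 14 CpGs in 170 bp. The vitamin D receptor element was searched on both strands as a pair of GNTCA letters with 4 bases between them. No exact match was found. The site holds cgcacccgctgaacc, which on the other strand reads GTTCA, 4 bases and GTGCG. The letters searched cannot match GTGCG, so the search cannot show that the site lacks the element. Capitals mark an AP-2 match.
Cyp24a1 promoter site: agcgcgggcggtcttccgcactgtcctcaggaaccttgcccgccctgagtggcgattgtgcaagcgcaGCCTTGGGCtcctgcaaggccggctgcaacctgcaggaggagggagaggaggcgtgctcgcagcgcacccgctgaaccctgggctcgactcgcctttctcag

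The Cyp24a1 neighbourhood held 42 shared sites (percentile 84.0), of which 38 were distal, at percentile 96.4 of all protein-coding genes for distal sites. They were spread on both sides, with 18 distal sites upstream, 2 inside the gene and 18 beyond its 3′ end, a region known from other work to hold calcitriol-responsive enhancers. The strongest intergenic site downstream lay 46009 bp from the TSS (chr2:170451061-170451210, 63.0 and 64.8), and weaker ones stood at 27329 bp (31.0 and 37.0), 37099 bp (25.3 and 24.8) and 21779 bp (21.7 and 22.7). The leading distal sites of all lay in neighbours, a pair in an intron of Pfdn4 10781 bp (chr2:170507841-170508010, 70.3 and 86.8) and 11811 bp (chr2:170508881-170509030, 73.9 and 74.98) upstream, and one in Bcas1 95549 bp downstream (chr2:170401521-170401670, 67.3 and 77.5). Cyp24a1 was the nearest protein-coding gene of only 1 of its 42 sites. This count depends in part on an annotated TSS of Pfdn4 that lies inside Cyp24a1. The distal sites inside Cyp24a1, 8789 and 1999 bp from its TSS, thus count as nearest to Pfdn4 (8072 and 1282 bp).

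Vdr encodes the vitamin D receptor. Its signal was concentrated at 1 of its 5 annotated start sites. At the TSS of Vdr-201, 2320 bp downstream of the most 5′ TSS, the peak had 57.4 in replicate 1 and 84.3 in replicate 2, a ratio of 1.47 and the widest gap between replicates among the 9 genes. Around the TSS of Vdr-202, 13817 bp downstream, the strongest peaks within 1 kb had 20.03 and 26.4. The most 5′ TSS (Vdr-204 and Vdr-206) and the one 50932 bp downstream had no peak within 1 kb in either replicate, and Vdr-205 had 1 in replicate 2 alone (16.5), which also lay near Vdr-201. CpG content was highest at Vdr-201 (0.658) and ran from 0.111 to 0.281 at the others. The part of the Vdr-201 site upstream of that TSS (chr15:97908311-97908450, minus strand) is shown because it held the strongest peak of the gene. Capitals mark its pair of matches to the SP/KLF letters GGGGCGGGG.
Vdr-201 promoter site: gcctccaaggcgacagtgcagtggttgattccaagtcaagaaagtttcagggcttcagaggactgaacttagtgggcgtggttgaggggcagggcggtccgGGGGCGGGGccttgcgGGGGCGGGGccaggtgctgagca

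Within 100 kb Vdr had 64 shared sites (percentile 98.3) and 45 distal ones (percentile 98.9), the highest count of distal sites among the 10 genes. Vdr itself was the nearest protein-coding gene of 18 of the 64. Inside the gene, 8 sites away from its start sites had mean signals of up to 19.2, well below the promoter. The leading distal sites lay inside neighbours: in Col2a1, a cartilage collagen gene, 82466 bp upstream (chr15:97993021-97993170, 137 and 139) and in Hdac7, a histone deacetylase gene, 85444 bp (chr15:97825101-97825270, 104 and 88.0) and 70344 bp (chr15:97840201-97840370, 94.95 and 88.0) downstream.

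**Figure D2:**
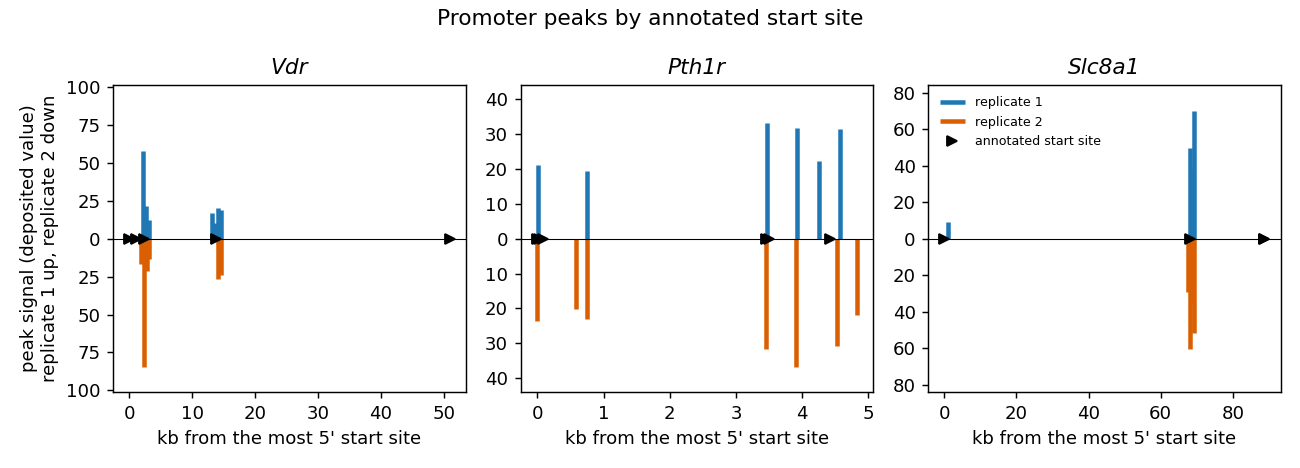
Promoter peaks of Vdr, Pth1r and Slc8a1 by distance from the most 5′ TSS (horizontal axes, kb), with peak signal of replicate 1 upward and of replicate 2 downward (vertical axes, deposited value) and annotated start sites as triangles. Vdr and Slc8a1 have their high peaks at 1 start site each, while the peaks of Pth1r spread over several.

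Kl encodes klotho, which is made mainly in the distal tubule. Its TSSs lie 97 bp apart, and the strongest peak, just downstream of them in the first exon, had 33.3 in replicate 1 and 26.7 in replicate 2. A peak just upstream had 15.2 and 18.8, and a weak one further into the gene had 9.92 and 11.8. Klotho stood at percentile 15.0 of genes with a promoter peak although its promoter is rich in CpG. The upstream site is shown (chr5:150952441-150952606, plus strand, 8 CpGs in 166 bp). It held no match to any of the 11 motifs searched and is printed without capitals.
Kl upstream site: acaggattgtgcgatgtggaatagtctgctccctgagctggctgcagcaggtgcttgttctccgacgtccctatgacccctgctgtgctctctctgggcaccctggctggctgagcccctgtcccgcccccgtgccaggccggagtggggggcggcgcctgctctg

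No other protein-coding gene has its most 5′ TSS within 100 kb of that of Kl, and its 22 shared sites equalled the median of all genes. Of these, 19 were distal (percentile 68.1) and 12 intergenic. Several distal sites had higher signal than the Kl promoter in both replicates: 58091 bp upstream (chr5:150894421-150894610, 49.97 and 56.7), 39751 bp upstream (chr5:150912781-150912930, 60.8 and 45.6), 40231 bp upstream (chr5:150912301-150912450, 52.2 and 36.1) and 70979 bp downstream (chr5:151023501-151023670, 52.6 and 40.8). The upstream ones are nearest to Kl among protein-coding genes and the downstream one to Stard13. Nearness does not show which gene a site serves. Inside Kl and away from its start sites, the stronger of 2 sites, in an intron 18119 bp from the TSS, had 24.4 and 23.2.

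Pth1r encodes the receptor for parathyroid hormone and its related peptide, and is known to be transcribed from several promoters. Peaks were found at all of its groups of start sites. Those at the most 5′ TSSs (Pth1r-204, Pth1r-205 and Pth1r-206) had 20.95 in replicate 1 and 23.7 in replicate 2. At Pth1r-202, 3459 bp downstream, the peak over the TSS had 33.2 and 31.7, and a peak between it and Pth1r-201 had 31.7 and 36.7. At Pth1r-201, 4426 bp downstream, it had 31.4 and 30.8, from a site that also lies within 1 kb of a start site of Myl3, a myosin light chain gene. Which of these was strongest differed between the replicates. CpG content was 0.216 at the most 5′ TSS, 0.730 at Pth1r-202 and 0.812 at Pth1r-201.

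The strongest accessible site of the Pth1r gene was not a promoter. An intronic site 14349 bp downstream (chr9:110732721-110732870) had 163 and 187, which was 5.01 times the mean promoter signal and at percentile 99.9 of distal sites. Of the 46 shared sites within 100 kb (percentile 88.3), 35 were distal (percentile 94.7). The next strongest lay between genes, 34341 bp upstream (chr9:110781381-110781590, 122 and 119) and 30209 bp downstream (chr9:110716861-110717010, 95.5 and 94.0). The intronic site is shown on the minus strand because it led the gene. It has 12 CpGs in 150 bp, and capitals mark an E-box CAGCTG.
Pth1r intronic site: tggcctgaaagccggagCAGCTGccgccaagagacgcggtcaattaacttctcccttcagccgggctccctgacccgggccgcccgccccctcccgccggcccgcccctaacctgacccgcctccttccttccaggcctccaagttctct

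Casr, the calcium-sensing receptor, acts in the parathyroid gland and in the thick ascending limb. Its promoter peaks were weak. In replicate 1 they had 9.75 and 9.03, at percentiles 7.57 and 3.67 of that list by signal, with deposited −log10 p values of 3.47 and 3.75, where the lowest value in the list was 3.12. In replicate 2 there was 1 peak of 12.3, at percentile 27.6 of its list and with a −log10 p of 5.87, at another position. No promoter peak was thus found at the same place in both, and the count of 9 of 10 genes includes this gene. With peaks in the upper 50% of signal the count was 8, and no share of all genes was taken at that setting. The 4 strongest shared sites near Casr lay in its introns. Near Casr, as near most of these genes, the peaks of a single replicate outnumbered the shared sites, with 17 in replicate 1 and 20 in replicate 2. The median over all protein-coding genes was 22 shared sites and 29 peaks in either replicate. Of the 11 shared sites of Casr (percentile 25.9), 5 lay inside the gene. They were led by one 28955 bp downstream with 52.1 and 46.6 (chr16:36533101-36533270), 4.48 times the mean promoter signal. Further ones 35345 bp (chr16:36526721-36526870, 28.0 and 29.5) and 16605 bp (chr16:36545461-36545610, 27.0 and 29.1) downstream followed. The leading site is shown for chr16:36533131-36533270 on the minus strand. It has 0 CpGs and no match to the motifs searched.
Casr intronic site: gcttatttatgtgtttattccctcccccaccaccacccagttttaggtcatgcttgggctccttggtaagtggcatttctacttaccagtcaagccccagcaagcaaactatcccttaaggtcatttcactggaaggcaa

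Among the genes of calcium passage along the distal tubule, Calb1 and Slc8a1 had promoter peaks in both replicates and Trpv5 had none. For Trpv5, the apical calcium channel, the nearest peaks to a start site were centred 18099 bp away in replicate 1 and 18119 bp in replicate 2. They form the only shared site inside the gene (chr6:41662461-41662630, 16.8 in both replicates), printed here on the minus strand. Its other 5 shared sites within 100 kb were 3 at the promoter of Ephb6, an intergenic one 81127 bp upstream (chr6:41761821-41761970, 49.5 and 63.4) and one in an intron of the paralog Trpv6 (chr6:41630921-41631070, 12.8 and 11.6). Within the same span replicate 1 had 10 peaks and replicate 2 had 8. Trpv6 had no promoter peak either. Trpv5 lies at percentile 15.3 of promoter CpG content, in the quintile where 19.2% of genes had a peak.
Trpv5 intronic site: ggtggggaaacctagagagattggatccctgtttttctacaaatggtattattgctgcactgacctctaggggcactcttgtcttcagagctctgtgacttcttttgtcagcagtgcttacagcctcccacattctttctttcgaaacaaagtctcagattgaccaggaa

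Calb1, which encodes calbindin, had 1 promoter peak in each replicate, over the start sites, with 52.5 in replicate 1 and 69.0 in replicate 2. Little else near it was accessible. Of 6 shared sites within 100 kb (percentile 18.0), 3 were promoters of Nbn and Decr1, and the distal ones were an intronic site 1182 bp downstream (chr4:15882361-15882530, 14.7 and 16.5) and an intergenic site 78998 bp upstream (chr4:15802181-15802350, 19.8 and 11.8). The part of the promoter site upstream of the TSS is shown (chr4:15881181-15881263, plus strand), since it held the highest accessibility of the gene. Capitals mark an AP-2 match.
Calb1 promoter site: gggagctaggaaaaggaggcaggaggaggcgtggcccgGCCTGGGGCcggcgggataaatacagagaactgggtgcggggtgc

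Slc8a1 encodes the sodium-calcium exchanger NCX1, which exports calcium in the distal tubule and in heart, and is known to use alternative promoters by tissue. Of its 4 annotated start sites, only that of Slc8a1-205, 68190 bp downstream of the most 5′ one, had peaks in both replicates. The peak over that TSS had 49.7 in replicate 1 and 60.6 in replicate 2, and a peak 931 bp downstream of it in an intron had 70.2 and 51.5, so the replicates differed in which was higher. The most 5′ TSS had a single weak peak within 1 kb in replicate 1 (8.86), and the TSSs 88769 and 88770 bp downstream had none. CpG content was 0.803 at Slc8a1-205 and 0.324 to 0.377 at the others. Within 100 kb of the most 5′ TSS there were 14 shared sites (percentile 31.8), all nearest to Slc8a1, and no other protein-coding gene has its most 5′ TSS in that span. This window covers less than the gene, which is 365 kb long and held 48 shared sites in all, 1.31 per 10 kb. The leading distal sites lay 71601 bp downstream in an intron (chr17:81666701-81666850, 47.4 and 55.8), 49179 bp upstream (chr17:81787481-81787630, 38.7 and 39.3) and 16739 bp upstream (chr17:81754941-81755290, 35.6 and 28.0). The site 931 bp downstream of the Slc8a1-205 TSS is shown (chr17:81669181-81669330, minus strand). It held no match to the motifs searched.
Slc8a1 promoter site: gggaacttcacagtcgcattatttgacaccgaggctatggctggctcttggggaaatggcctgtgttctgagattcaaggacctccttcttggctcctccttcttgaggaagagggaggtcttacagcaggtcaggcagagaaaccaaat

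**Figure D3:**
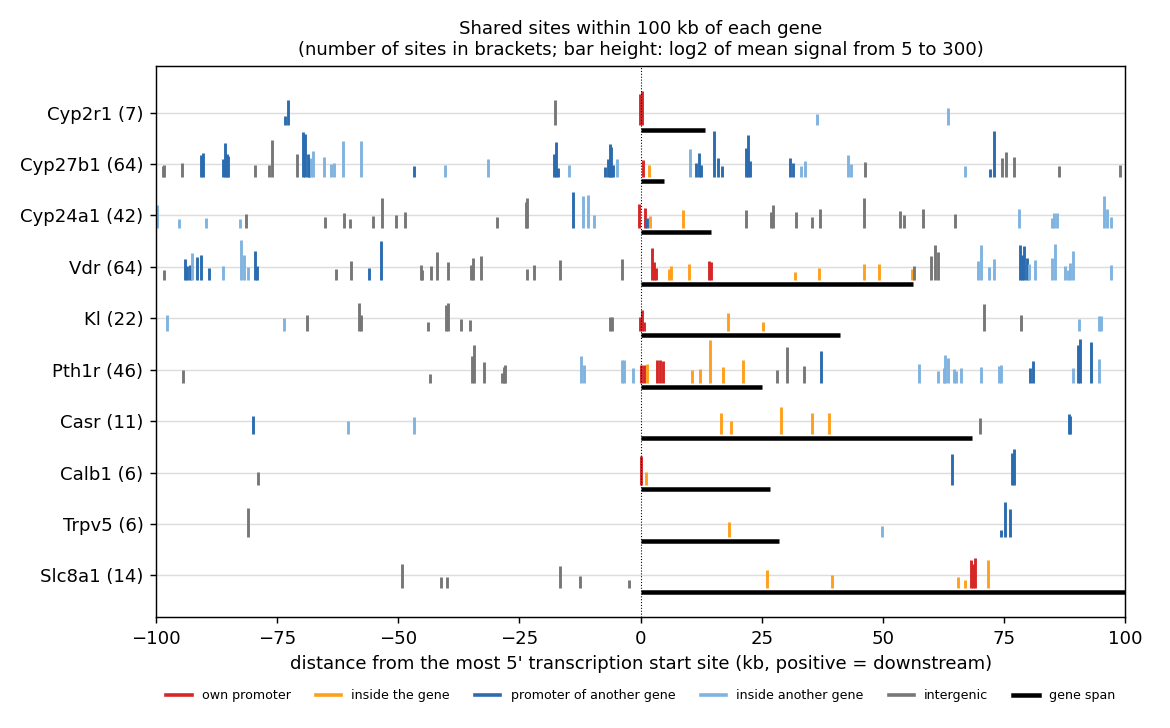
Shared sites of the 10 genes by distance from the most 5′ TSS (horizontal axis, kb; positive is downstream), with bar height for the log2 of mean signal, colour for position and a black line for the gene. Sites of Calb1, Trpv5 and Cyp2r1 are sparse, with 6, 6 and 7, while Cyp27b1 and Vdr have 64 each.

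Across the 10 genes the number of shared sites ran from 6 to 64. The median was 18, against 22 for all protein-coding genes (quartiles 11 and 35), and for distal sites it was 15 against 13 (quartiles 6 and 22). At or above the median of all genes were 5 members, Cyp27b1, Vdr, Pth1r, Cyp24a1 and Kl. The other 5 members, Slc8a1, Casr, Cyp2r1, Calb1 and Trpv5, lay below it. In total there were 282 sites, each counted for 1 gene: 22 at the members' own promoters, 31 inside the members, 87 between genes, 77 inside other genes and 65 at promoters of other genes. Those inside or at the promoter of another gene made up 50.4%. The same share was not taken around all protein-coding genes, so it cannot be called high or low. The median signal of the 195 distal sites was 18.7, against 19.1 for all 151068 shared distal sites.

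**Figure D4:**
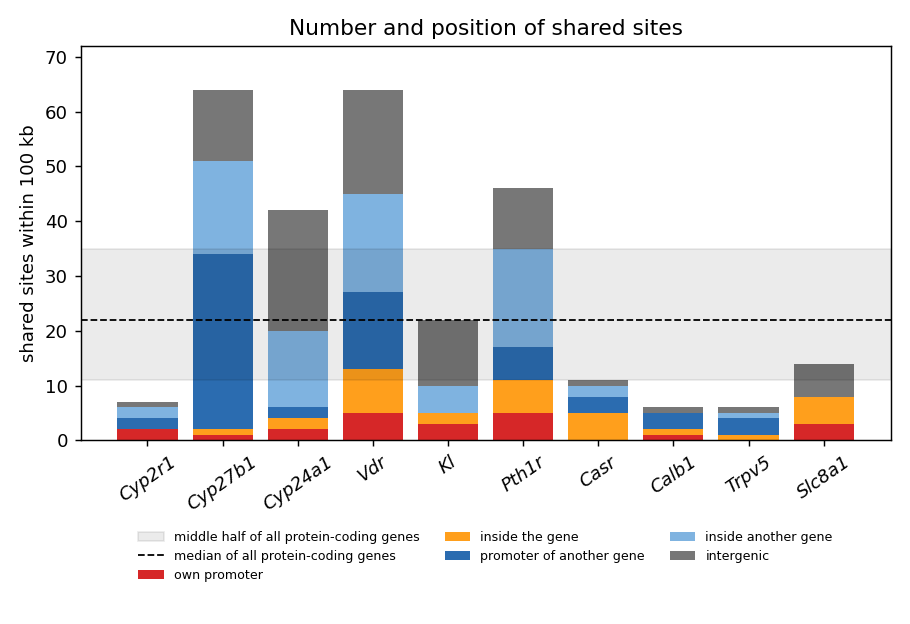
Number of shared sites within 100 kb of each gene (vertical axis), stacked by position, with the quartiles (grey band) and median (dashed line) of all protein-coding genes. At Cyp27b1 32 of 64 sites are promoters of other genes, while Kl and Slc8a1 have none of that kind.

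The signals of these sites, which all have a peak in both replicates, were close between the replicates. Peaks called in 1 replicate alone were left out, so the share given next does not measure agreement over all peaks. Of the 282 sites, 281 had signals within 2-fold of each other (99.6%, against 99.3% of all shared sites). The exception lay at the promoter of Cd86 near Casr (chr16:36641961-36642170), with 33.3 in replicate 1 and 13.3 in replicate 2.

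**Figure D5:**
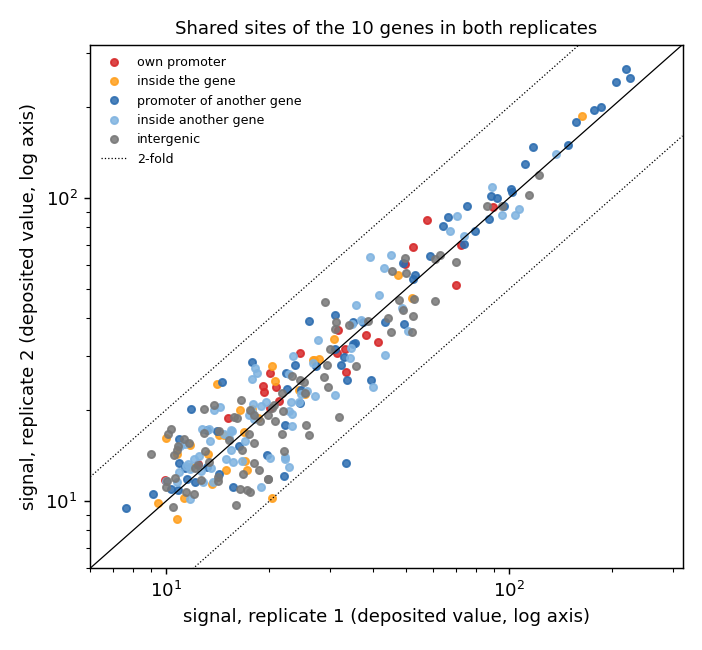
Signal of the 282 shared sites in replicate 1 (horizontal log axis) and replicate 2 (vertical log axis), coloured by position, with equality as a solid line and 2-fold as dotted lines. All but 1 lie between the dotted lines or on one.

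Motif letters were searched in the central 150 bp of the sites, on both strands. None of the 282 sites held an exact match to the vitamin D receptor letters described above. Such matches stood at 0.293% of all shared promoter sites and 0.442% of all shared distal sites, so few could occur in a set of this size. Variants such as GTTCA with GTGCG at the Cyp24a1 promoter site are missed by these letters. The search therefore cannot show that the sites lack the element. The AP-2 letters were found at 6 of the 22 own promoter sites, at Cyp2r1, Cyp24a1, Kl, Pth1r and Calb1, and at 10.9% of all shared promoter sites. SP/KLF letters stood at 2 of the 22, at Vdr and Pth1r, and at 7.49% of all. Among the distal sites, 1 of 195 held the HNF4 letters CAAAGTCCA (0.361% of all distal sites), 70964 bp upstream of Cyp27b1, and 1 held the oestrogen-related receptor letters TCAAGGTCA (0.369%), 99036 bp downstream of it. TATAAA stood at 0 of the 22 own promoter sites (4.05% of all shared promoter sites) and at 17 of the 195 distal ones (9.01% of all). The E-box CAGCTG stood at 1 of the 22 (11.4% of all) and at 27 of the 195 (16.0% of all). The CRE letters TGACGTCA, HNF1 (GTTAAT, any base, ATTAA) and NFI (TTGGC and GCCAA with 5 bases between) were found at none of the 282. In that order they stood at 1.25%, 0.0621% and 0.0578% of all shared promoter sites. Among all shared distal sites they stood at 0.314%, 0.0708% and 0.102%, so few could occur in a set of this size. CTCF letters (CCACNAGG followed by NGGCAG) were found at 1, near Casr at the promoter of Gm49653. They stood at 0.244% of all shared promoter sites and 0.634% of all shared distal sites. These are letter matches in these windows and say nothing of binding.

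Other genes of the pathway were taken from lists in which 46 of 55 genes (83.6%) had promoter peaks in each replicate, against the 71.8% of all genes. The lists were chosen with earlier results of these data known and were not matched for promoter CpG content. By CpG quintile the share of all genes ran from 19.2% to 99%, so the 71.8% is not a matched reference. Of 15 genes of vitamin D supply and receptor partners, 14 had one, led by Dhcr7, which diverts the vitamin D precursor to cholesterol (254 ± 18.3), and the coactivator genes Ncoa2 (207 ± 9.25) and Med1 (189 ± 8.82). Rxra, the partner of Vdr on DNA, had 76.8 ± 2.59, Cyp27a1 had 76.3 ± 2.59, and Gc, the vitamin D binding protein made by liver, had none. Of 19 genes of calcium and magnesium transport, 15 had one. The basolateral calcium pump gene Atp2b1 had 195 ± 28.7, the channel gene Trpm7 149 ± 13.7, the mitochondrial exchanger gene Slc8b1 144 ± 18.0 and the magnesium channel gene Trpm6 34.1 ± 3.03. Cldn16, Cldn2 and Trpv6 had none, and S100g, which encodes another calbindin, had 1 in replicate 1 alone (15.8). Of 21 genes of klotho, FGF23, parathyroid hormone and phosphate, 17 had one. The G protein gene Gna11 had 248 ± 34.6, the phosphate transporter gene Slc20a1 204 ± 21.5, the scaffold gene Slc9a3r1 190 ± 23.3 and Fgfr1, the FGF receptor that pairs with klotho, 128 ± 4.83. Slc34a3 had 16.2 ± 4.56, Klb had a peak in replicate 1 alone (10.9), and Slc34a1 and the parathyroid factor gene Gcm2 had none. Over genes with a peak in both, the median signal was 88.0, 34.1 and 62.9 in these 3 lists, against 99.8 for all genes.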

How the data were processed

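DNase-seq of newborn kidney was analysed in 2 replicates of 1 group. The authors deposited 1 peak list per replicate, made from an alignment of 36-nt reads to mm10, per the file headers, so peaks were not called on pooled samples. The aligner, peak caller, threshold, depth and signal scaling were not given in the sources used here. Column 7 holds the authors' deposited signal per peak, in multiples of 1/64. The authors' −log10 p (column 8) was used only to describe peaks. Signals describe and rank peaks, and no p-value was computed. Lists of different length hold different numbers of weak peaks.

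Sites were built by an overlap of at least 1 bp and annotated with GENCODE M21 on GRCm38, the same build as mm10. No peak reached beyond a chromosome end. Percentiles count ties at their midpoint, among all protein-coding genes or sites. The genes, lists and motifs were chosen with earlier results of these data known. All 10 genes are named, as are the 3 strongest distal sites of each, except that Calb1 has only 2. Also named are the 3 strongest genes of each pathway list and up to 3 of each without a peak. A further 11 genes were fixed by name, among them Rxra, Trpv6 and Klb. Further sites near Cyp27b1, Cyp24a1, Kl and Casr were singled out after their values were seen. Printed sequences were read from the GRCm38 RefSeq assembly on the strand of the gene, without annotated untranslated exon parts. Alternatives were windows of 500 bp and 2 kb, a span of 50 kb, peaks in the upper 50% of signal, 50% overlap of both peaks, overlapping promoter peaks (chosen after seeing the data) and each replicate alone. Steps were tested on simulated data. Python 3.11.15, numpy 2.4.6, pandas 2.3.3, pysam 0.24.0 and matplotlib 3.10.9 were used.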

Additional observations from a re-analysis of the deposited data

How the results depend on the processing

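The number of the 10 genes with a promoter peak in both replicates was 9 with windows of 500 bp and 2 kb, 8 with peaks in the upper 50% of signal and 8 when the peaks of the replicates had to overlap, where Casr dropped out. With each replicate alone it was 9, against 72.8% of all protein-coding genes in replicate 1 and 72.9% in replicate 2. For the 55 pathway genes the count of 46 ran from 38 (upper 50% of signal) to 49 (replicate 1 alone). No share of all protein-coding genes was taken for the windows of 500 bp and 2 kb or the upper 50% of signal. The counts under those settings therefore have no reference beside them. The median number of shared sites over the 10 genes fell from 18 to 10 within 50 kb and to 7.5 with peaks in the upper 50% of signal, where the median of all protein-coding genes fell from 22 to 11 and to 13. It was 15 with 50% overlap of both peaks, and 24 to 25 for all peaks of a single replicate, where the median of all protein-coding genes was 29. Counting the peaks of 1 replicate moved 2 genes by over 1.5 times: Casr from 11 to 20 without replicate 1 and 17 without replicate 2, and Trpv5 from 6 to 10 without replicate 2. The promoter signal of Slc8a1 was 55.1 with the window of 500 bp, against 65.4, because its peak 931 bp from the TSS then falls outside. No paired analysis was possible because the study holds 1 group. Depth is unknown, so a missing promoter peak, as at Trpv5, is below the authors' unstated threshold and not shown to be closed.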
